A study of Canis lupus familiaris with 15 samples.

Results

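The mir-34 and mir-449 family was followed through 15 canine spleens: 5 with hemangiosarcoma, a malignant tumor of blood vessel lining cells, 5 with nodular hyperplasia, a benign overgrowth of splenic tissue, and 5 normal spleens. The members were found by name among the miRNA hairpins of the deposited tables, with every name starting mir-449 counted together. They were mir-34a, mir-34b, mir-34c and 1 hairpin named mir-449, which is 4 of the 277 miRNAs in the tables. Each spleen was 1 small RNA library of frozen tissue and 1 biological replicate. The labels used here name no treatment or engineered allele in any group. The masses came from client-owned dogs that underwent splenectomy, and the normal spleens were archived tissue. Disease state and source of tissue therefore cannot be told apart in any difference from normal spleen. Ages are not given in the labels used here.

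MiRNAs are short RNAs that bind messenger RNAs through a seed near their 5' end and lower the output of those messages. The mir-34 and mir-449 miRNAs have closely related seeds. In human and mouse cells, the p53 protein, a transcription factor activated by DNA damage, directly raises transcription of the mir-34a gene and of the shared mir-34b and mir-34c transcript, and the mir-34 products repress messages that drive the cell cycle and survival. In mammals, mir-34b, mir-34c and mir-449 are also abundant in cells that carry motile cilia. Mir-449 is raised by E2F1, a cell cycle transcription factor, in human cells. In the RefSeq annotation of the dog (assembly UU_Cfam_GSD_1.0), MIR34B and MIR34C are direct neighbours within the span of HOATZ, and MIR34B lies next to BTG4. MIR34A lies between genes, with GPR157 on one side. MIR449A lies within the span of CDC20B and next to MIR449B.

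Mature counts per library came to 4374133 to 7548062 in normal spleen, 3768867 to 6073162 in nodular hyperplasia and 3040736 to 6562849 in hemangiosarcoma. Levels are given as CPM, the count relative to library size, with library size scaled by edgeR's TMM method. Of the 15 libraries, hemangiosarcoma replicate 3 stood apart in pancreas miRNAs: mir-375, mir-216a, mir-216b and mir-217 summed to 3518 CPM there, and to 0.804 to 16.0 CPM in the other 14 libraries. Hemangiosarcoma replicate 4 had the fewest mature counts, 3040736, and the largest share of reads outside annotated mature sequences, 22.8%. The endothelial miRNA mir-126 was at 3006 to 13777 CPM in hemangiosarcoma, at 2161 to 2734 CPM in normal spleen and at 824 to 2536 CPM in nodular hyperplasia. Where leaving out hemangiosarcoma replicate 3 or 4 moved a fold change of a member across the threshold by edgeR, both results are given. Correlations and the most alike profiles rest on all 15 libraries unless stated otherwise.

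The members did not move together. Mir-34a was higher in both kinds of mass than in normal spleen, 4.78-fold in hemangiosarcoma and 7.03-fold in nodular hyperplasia. Mir-449 was higher in hemangiosarcoma than in either other group, although this rested largely on 1 tumor. Mir-34b and mir-34c varied with each other from spleen to spleen and had their highest means in nodular hyperplasia, and neither passed the threshold of adjusted p under 0.05 in any comparison by edgeR. Of the 4 members, 2 passed in hemangiosarcoma against normal spleen, both higher. Among all 250 miRNAs tested, 22.4% passed in that comparison, 13.6% as higher and 8.8% as lower. In hemangiosarcoma against nodular hyperplasia 1 of 4 passed, as higher, where 18.4% of all tested miRNAs passed, 10.4% as higher and 8% as lower. In nodular hyperplasia against normal spleen 1 of 4 passed, as higher, where 12.4% of all passed, 5.6% as higher and 6.8% as lower. The last of these backgrounds was the least stable: 31 miRNAs passed with all libraries and 4 without normal spleen replicate 2. The 3 comparisons share samples, so their values are not independent.

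**Figure D1:**
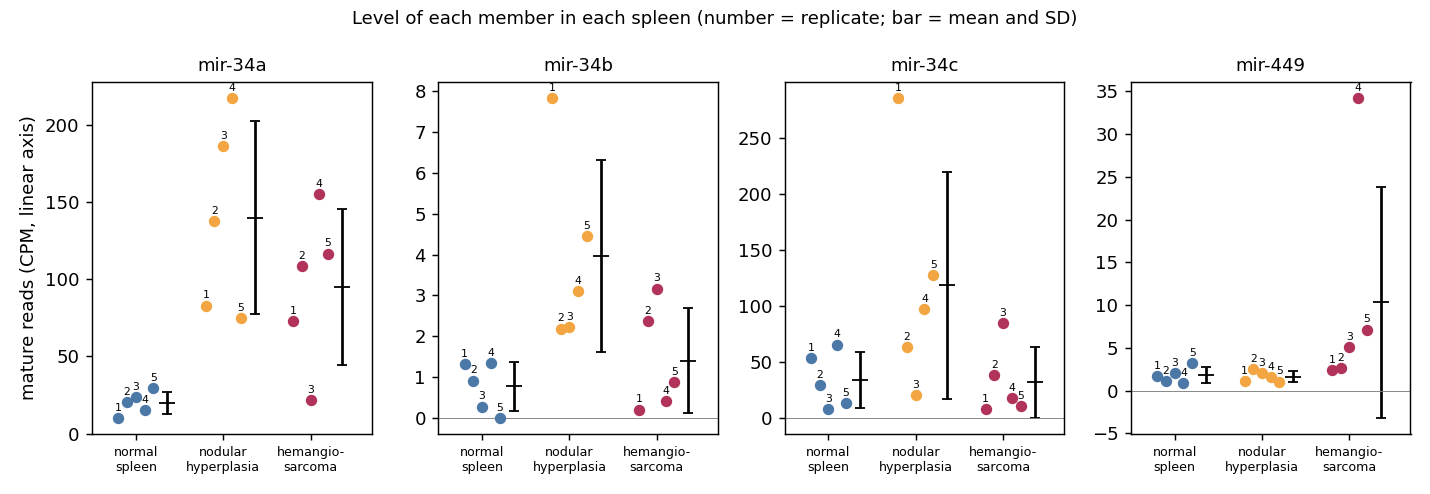
Mature reads of mir-34a, mir-34b, mir-34c and mir-449 in CPM on linear axes, 1 point per spleen numbered by replicate, with the group mean and SD beside the points (n = 5). Mir-34a in nodular hyperplasia lies at 75.1 to 217 CPM, above all normal spleens, and mir-449 in hemangiosarcoma replicate 4 stands at 34.2 CPM.

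Mir-34a, the member most closely tied to p53 in human cells, was at 10.2, 20.3, 23.8, 15.4 and 29.5 CPM in normal spleen replicates 1 to 5. In nodular hyperplasia replicates 1 to 5 it was at 82.9, 138, 186, 217 and 75.1 CPM. In hemangiosarcoma replicates 1 to 5 it was at 72.9, 109, 21.7, 155 and 117 CPM. Every nodular hyperplasia sample was above every normal spleen, and 4 of the 5 hemangiosarcomas were as well. The exception was hemangiosarcoma replicate 3, the library with the pancreas miRNAs, which lay within the range of normal spleen.

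The mean of mir-34a was 95.0 ± 50.3 CPM (SD, n = 5) in hemangiosarcoma and 19.8 ± 7.44 CPM (SD, n = 5) in normal spleen. The log2 fold change was 2.26 (SE 0.48, adjusted p = 0.00541 by edgeR). Without hemangiosarcoma replicate 3 the log2 fold change was 2.68 (adjusted p = 0.000534 by edgeR). The exact permutation test of this member alone gave p = 0.0238, and 0.0714 after adjustment over the 12 tests of members and comparisons, which missed the threshold. Nodular hyperplasia reached 139.9 ± 62.4 CPM (SD, n = 5), a log2 fold change of 2.81 over normal spleen (SE 0.49, adjusted p = 0.00282 by edgeR). This difference ranked at 2 of 250 by p-value in its comparison, and the exact permutation test gave the smallest p that 5 against 5 samples allow, 0.00794 (adjusted 0.0476). Between hemangiosarcoma and nodular hyperplasia mir-34a did not pass the test, with a log2 fold change of -0.56 and a 95% interval from -1.46 to 0.34 (adjusted p = 0.406 by edgeR). In bulk tissue, a change in the number of cells of a type and a change in RNA per cell cannot be told apart. Marker miRNAs differed between the groups too. Of the blood and spleen list (mir-142, mir-150, mir-223 and mir-451), 3 of 4 were lower in hemangiosarcoma than in normal spleen. In that comparison 8.8% of all tested miRNAs were lower. The summed list had a range of 15033 to 48832 CPM in hemangiosarcoma and 47684 to 139264 CPM in normal spleen. None of the 4 passed in nodular hyperplasia against normal spleen, where 12.4% of all tested miRNAs passed. Their log2 fold changes were 0.99 for mir-142, 1.22 for mir-150, 0.51 for mir-223 and -0.71 for mir-451. The smooth muscle miRNAs mir-143 and mir-145 were below normal spleen in nodular hyperplasia, with log2 fold changes of -2.10 and -1.58 (adjusted p = 0.0172 and 0.0182 by edgeR). Their part in the mir-34a result was not tested.

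**Figure D2:**
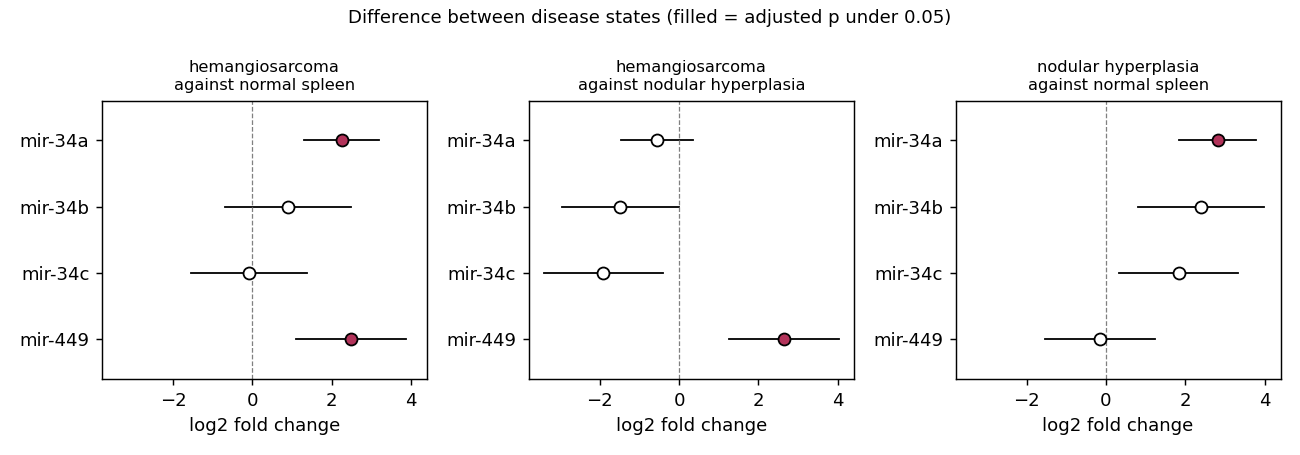
Log2 fold change of each member in the 3 comparisons, with its 95% interval as a line; filled points passed adjusted p under 0.05 by edgeR. Mir-34a and mir-449 are filled for hemangiosarcoma against normal spleen, mir-449 is filled against nodular hyperplasia, and mir-34a is filled where nodular hyperplasia is set against normal spleen.

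Mir-34c, which mammals cut from the same transcript as mir-34b, was at 52.8, 28.9, 7.42, 65.2 and 12.6 CPM in normal spleen replicates 1 to 5. In nodular hyperplasia replicates 1 to 5 it was at 285, 62.9, 19.9, 96.5 and 127 CPM. In hemangiosarcoma replicates 1 to 5 it was at 7.63, 38.1, 84.3, 17.3 and 10.4 CPM. All 3 groups overlapped, and the spread within a group was wide: nodular hyperplasia replicates 1 and 5 were the highest of all spleens, and replicate 3 of that group was below 3 of the normal spleens. Among the tumors the highest was hemangiosarcoma replicate 3, the library that was lowest for mir-34a.

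Group means of mir-34c were 118 ± 101 CPM in nodular hyperplasia, 33.4 ± 25.1 CPM in normal spleen and 31.6 ± 31.8 CPM in hemangiosarcoma (SD, n = 5 each). Nodular hyperplasia against normal spleen gave a log2 fold change of 1.83 (SE 0.77, adjusted p = 0.114 by edgeR). It was 1.20 without nodular hyperplasia replicate 1 (adjusted p = 0.326 by edgeR). Hemangiosarcoma against nodular hyperplasia gave -1.91 (SE 0.77, adjusted p = 0.0849 by edgeR). Without hemangiosarcoma replicate 3 it was -2.53, which passed the threshold (adjusted p = 0.0246 by edgeR). Hemangiosarcoma and normal spleen differed by -0.08, with a 95% interval from -1.54 to 1.38 (adjusted p = 0.991 by edgeR), and the sign of this value changed with the scaling.

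Mir-34b was scarce, with 0 to 44 mature counts per library. It was at 1.32, 0.910, 0.275, 1.34 and 0 CPM in normal spleen replicates 1 to 5, where 0 counts in replicate 5 allow up to 0.651 CPM. In nodular hyperplasia replicates 1 to 5 it was at 7.83, 2.18, 2.22, 3.10 and 4.45 CPM. Hemangiosarcoma replicates 1 to 5 held 0.201, 2.36, 3.17, 0.417 and 0.871 CPM. By mature reads, every nodular hyperplasia sample was above every normal spleen, while hemangiosarcoma overlapped both groups. Of all reads on the hairpin, normal spleen replicate 4 had 21 and nodular hyperplasia replicate 3 had 14.

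The mean of mir-34b was 0.769 ± 0.609 CPM in normal spleen, 3.96 ± 2.35 CPM in nodular hyperplasia and 1.40 ± 1.30 CPM in hemangiosarcoma (SD, n = 5 each). For nodular hyperplasia against normal spleen the log2 fold change was 2.39 (SE 0.80), and the tests fell on either side of the threshold. The adjusted p by edgeR was 0.0614, and the exact permutation test gave 0.00794, adjusted to 0.0476. By edgeR it passed without nodular hyperplasia replicate 3 (adjusted p = 0.0412) or hemangiosarcoma replicate 3 (adjusted p = 0.0372). In the other 13 of 15 fits that left out 1 library it did not pass. The highest adjusted p by edgeR among them was 0.126, without nodular hyperplasia replicate 1. Groups without overlap in the same comparison were found for 2 of the 4 members, mir-34a and mir-34b, both higher, against 6.4% of all tested miRNAs higher and 9.2% lower. No member had groups without overlap in hemangiosarcoma against normal spleen, where 6.8% of all were higher and 6% lower in that way, or in hemangiosarcoma against nodular hyperplasia, where the shares were 3.6% and 4.4%. Hemangiosarcoma against nodular hyperplasia gave -1.49 for mir-34b (SE 0.75, adjusted p = 0.164 by edgeR), and hemangiosarcoma against normal spleen 0.91 (SE 0.81, adjusted p = 0.479 by edgeR).

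Mir-449 had 4 to 164 mature counts per library. In normal spleen replicates 1 to 5 it was at 1.65, 1.14, 2.06, 0.893 and 3.25 CPM. In nodular hyperplasia replicates 1 to 5 it was at 1.07, 2.48, 2.02, 1.55 and 1.05 CPM. In hemangiosarcoma replicates 1 to 5 it was at 2.41, 2.66, 5.11, 34.2 and 7.14 CPM. Hemangiosarcoma replicates 3, 4 and 5 were above every spleen of the other groups, and replicate 4 alone reached more than 4 times the next highest tumor.

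Mir-449 averaged 10.3 ± 13.5 CPM in hemangiosarcoma, 1.80 ± 0.931 CPM in normal spleen and 1.63 ± 0.618 CPM in nodular hyperplasia (SD, n = 5 each). The log2 fold change was 2.49 against normal spleen (SE 0.71, adjusted p = 0.0209 by edgeR) and 2.64 against nodular hyperplasia (SE 0.71, adjusted p = 0.0175 by edgeR). Without hemangiosarcoma replicate 4 these were 1.25 (adjusted p = 0.116) and 1.39 (adjusted p = 0.0937), and neither passed the threshold by edgeR. The difference from normal spleen also missed it without normal spleen replicate 2 (adjusted p = 0.0515) or replicate 4 (adjusted p = 0.054). The exact permutation tests gave p = 0.0317 and 0.0159, which after adjustment were 0.0762 and 0.0635. Nodular hyperplasia and normal spleen differed by -0.15, with a 95% interval from -1.53 to 1.23 (adjusted p = 0.887 by edgeR). The epithelial list (mir-200a, mir-200b, mir-200c, mir-141, mir-429, mir-203 and mir-205) summed to 9.59 CPM in hemangiosarcoma replicate 4, to 9.26 to 32.3 CPM over the 5 tumors and to 39.6 to 50.9 CPM in normal spleen. Of its 6 tested members 1 passed in that comparison, where 22.4% of all tested miRNAs passed, 8.8% as lower. It was mir-203, which was lower in hemangiosarcoma (log2 fold change -1.65, adjusted p = 0.0209 by edgeR). Mir-429 and mir-205, both under 1 CPM on average, had log2 fold changes of 1.97 and 1.83 that did not pass. The part of epithelial cells in the mir-449 result was not tested.

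The make-up of the family differed from spleen to spleen. The 4 members together had 200 to 371 counts per library in normal spleen, 1026 to 2119 in nodular hyperplasia and 414 to 1028 in hemangiosarcoma. Mir-34a exceeded mir-34c in 2 of 5 normal spleens, 3 of 5 nodular hyperplasias and 4 of 5 hemangiosarcomas. The median ratio of mir-34a to mir-34c counts was 0.701 in normal spleen (0.194 to 3.20), 2.19 in nodular hyperplasia (0.291 to 9.33) and 8.96 in hemangiosarcoma (0.257 to 11.2). The ranges of this ratio overlapped. Mir-449 made up 16.5% of family counts in hemangiosarcoma replicate 4 and was at most 7.18% in any normal spleen. Mir-34b was below mir-34c in 15 of 15 libraries and came to 3.41% of the mir-34c count over all of them.

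**Figure D3:**
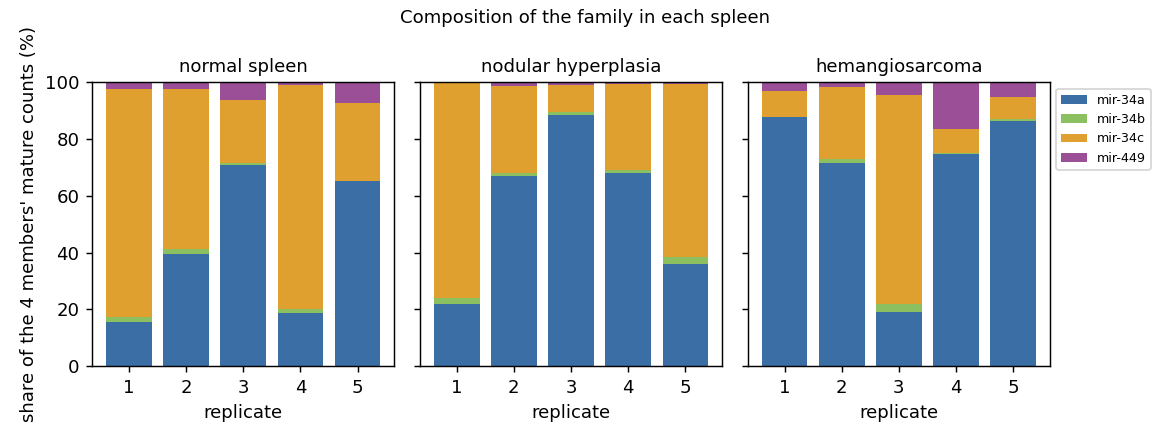
Share of each member in the summed mature counts of the 4 members, 1 bar per spleen, by disease state and replicate. Mir-34a exceeds mir-34c in 2 normal spleens, 3 nodular hyperplasias and 4 hemangiosarcomas, and hemangiosarcoma replicate 3 is mostly mir-34c.

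Mir-34b and mir-34c, neighbours in the genome, had the closest relation among the members. Over the 15 libraries Pearson's r of log2(CPM + 1) was 0.90 (permutation p = 1e-05, the smallest that 100000 random pairings can give, adjusted 0.00012 over 12 correlations) and Spearman's rho was 0.89 (permutation p = 2e-05, adjusted 0.00024). Without the 2 libraries farthest in mir-34b, r was 0.86. With the group means removed, and pairings drawn within groups, r was 0.90 (permutation p = 0.00013, adjusted 0.00078) and rho was 0.86 (permutation p = 0.00044, adjusted 0.00264). The relation thus held among spleens of the same disease state. It rests on few mir-34b reads: 167 mature reads over all libraries, 3.41% of the mir-34c count. Of these, 4 were exact and 166 were in the column of unique reads. Whether reads of mir-34c were counted as mir-34b was not tested.

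The relation of mir-34a to mir-34c had the opposite sign. With group means removed, its r with mir-34c was -0.66 (permutation p = 0.0123, adjusted 0.0368) and rho was -0.60 (permutation p = 0.0325, adjusted 0.102). Without the 2 farthest libraries r was -0.51. With CPM from library totals alone r was -0.45 (adjusted permutation p = 0.286), so the relation depended on the scaling. Pooled over the groups, r between mir-34a and mir-34c was 0.02 (permutation p = 0.934) and rho was 0.03 (permutation p = 0.934). Mir-34a was also negatively related to mir-34b, with r of -0.68 after removal of group means (permutation p = 0.0119, adjusted 0.0368) and rho of -0.59 (permutation p = 0.0426, adjusted 0.102). Without the 2 farthest libraries r between mir-34a and mir-34b was -0.54. Other scalings were not tried for this pair. Since mir-34b followed mir-34c, the relations of mir-34a to these members are not independent. Mir-449 passed no test with any member. Of 20 relations between members and summed marker lists, with group means removed, none passed after adjustment. The strongest were with the pancreas list, whose part in the relations between members was not tested. The summed pancreas miRNAs had r of -0.83 with mir-34a (permutation p = 0.00508, adjusted 0.0943 over 20 relations; rho -0.73, permutation p = 0.0055, adjusted 0.0673; r without the 2 farthest libraries -0.83). For mir-34c r was 0.59 (permutation p = 0.00943, adjusted 0.0943; rho 0.65, permutation p = 0.00673, adjusted 0.0673; r without the 2 farthest libraries 0.41).

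**Figure D4:**
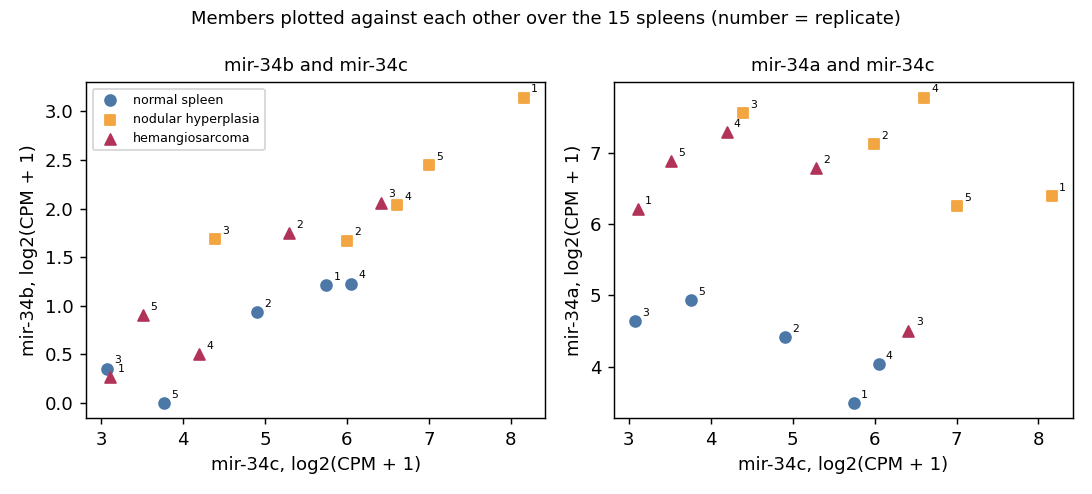
Levels of mir-34b and of mir-34a against mir-34c as log2(CPM + 1), 1 point per spleen, with disease state by colour and shape and the replicate beside it. Mir-34b follows mir-34c over the 15 spleens (r 0.90), whereas mir-34a and mir-34c show no such relation when pooled (r 0.02). Hemangiosarcoma replicate 3 is the lowest tumor for mir-34a.

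The miRNAs whose profile over the 15 libraries was most like that of a member, among 171 with a mean of at least 10 CPM, are given as a description. For mir-34a these were mir-31 (r 0.75), mir-374a (r 0.70) and mir-96 (r 0.68). For mir-34b and mir-34c the closest was mir-499 in both cases (r 0.76 and 0.63), followed by mir-671 (r 0.67) and mir-29a (r 0.63) for mir-34b and by mir-146b (r 0.62) and mir-379 (r 0.61) for mir-34c. Mir-449 was closest to mir-365 (r 0.85), mir-92b (r 0.81) and mir-212 (r 0.78). The points share library and depth, and hemangiosarcoma replicate 4 is far from the others for mir-449.

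All reads counted as mature for the 4 members were in the column of the 5' arm, and the column of the 3' arm held 0 in every library. Whether a mature sequence of the 3' arm was annotated is not given in the sources used here, so reads of that arm may be among those counted elsewhere on the hairpin. The tables also count which mature reads are exact. What makes a mature read not exact, such as a shifted end or a mismatch, is not stated, so the shares below describe these columns only. Exact reads were 36.1% of mature reads for mir-34a, 19.6% for mir-34c, 54.6% for mir-449 and 2.40% for mir-34b, where they came to 4 of 167. Mir-34b was unusual in a further way: 48.1% of its hairpin reads, 155 of 322, lay outside the annotated mature sequence, compared with 6.65% for mir-34a, 11.2% for mir-34c and 2.26% for mir-449.

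The exact share of mir-34a and mir-34c went in opposite directions between either kind of mass and normal spleen. For mir-34a it was 24.6% to 29.0% in normal spleen, 29.2% to 40.8% in nodular hyperplasia and 31.5% to 42.0% in hemangiosarcoma. Normal spleen overlapped neither other group. Hemangiosarcoma exceeded normal spleen by 10.9 percentage points and nodular hyperplasia exceeded it by 7.03, both with an exact permutation p of 0.00794 (adjusted 0.0317 over 12 tests). For mir-34c it was 24.1% to 45.0% in normal spleen, 8.04% to 26.9% in nodular hyperplasia and 13.01% to 22.9% in hemangiosarcoma. Hemangiosarcoma was lower than normal spleen without overlap, with a difference of -13.2 points (exact permutation p = 0.00794, adjusted 0.0317). Among 160 miRNAs with at least 20 hairpin reads in every library, the exact share separated hemangiosarcoma from normal spleen without overlap as higher in 5% and as lower in 3.75%, and nodular hyperplasia from normal spleen as higher in 6.25% and as lower in 13.1%. For mir-34c, nodular hyperplasia against normal spleen gave -16.7 points (exact permutation p = 0.0238, adjusted 0.0714). Hemangiosarcoma against nodular hyperplasia gave 3.90 points for mir-34a and 3.52 points for mir-34c. Neither passed (exact permutation, adjusted p = 0.299 and 0.607). Over all miRNAs of a library the exact share was 29.2% to 37.0% in normal spleen, 31.1% to 34.8% in nodular hyperplasia and 26.4% to 32.0% in hemangiosarcoma.

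The intervals of single libraries were wide where counts were few. In normal spleen replicate 1 the exact share of mir-34a was 29.0% of 31 reads, with a 95% Wilson interval from 16.1% to 46.6%, which covers counting error only. Counting exact reads alone, mir-34a was still higher in both masses, by 2.84 and 3.17 on the log2 scale in hemangiosarcoma and nodular hyperplasia over normal spleen. For mir-34c the difference between nodular hyperplasia and normal spleen was 0.82 when exact reads alone were counted, compared with 1.83 for all mature reads. In hemangiosarcoma against normal spleen it was -1.04 (adjusted p = 0.438 by edgeR), compared with -0.08.

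**Figure D5:**
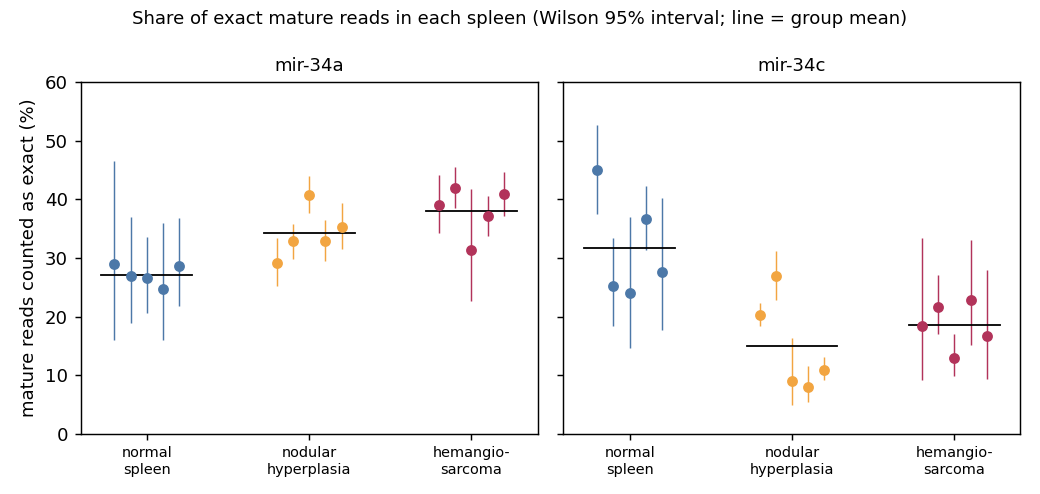
Percent of mature reads counted as exact for mir-34a and mir-34c, 1 point per spleen with its Wilson 95% interval and a line at the group mean. Normal spleen means are 27.2% for mir-34a and 31.7% for mir-34c, and hemangiosarcoma means are 38.1% and 18.5%.

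Other miRNAs tied to p53 in human cells were counted from fixed lists. Of 9 miRNAs that p53 is known to raise, apart from the family, 8 were tested. In hemangiosarcoma against normal spleen 1 of 8 rose and 0 fell, near the 13.6% of all tested miRNAs that were higher, and the list's median log2 fold change was 0.04, compared with 0.03 for all miRNAs tested. The one that rose was mir-22, which can induce senescence in human cells, at 12373 ± 1483 CPM in hemangiosarcoma and 6955 ± 679 CPM in normal spleen (log2 fold change 0.83, adjusted p = 0.0245 by edgeR). In nodular hyperplasia against normal spleen 1 of 8 rose and 0 fell, where 5.6% of all were higher (list median 0.48, all miRNAs 0.23). This was mir-141, an epithelial miRNA, at 9.92 ± 2.90 and 2.99 ± 1.5 CPM (log2 fold change 1.72, adjusted p = 0.0182 by edgeR). In hemangiosarcoma against nodular hyperplasia mir-141 and mir-200c, both epithelial miRNAs of related seed, fell, with log2 fold changes of -1.98 and -1.55 (adjusted p = 0.00608 and 0.0078 by edgeR), which is 2 of 8 where 8% of all were lower (list median 0.02, all miRNAs -0.07). Mir-192, mir-194, mir-215, mir-107 and mir-205 passed in no comparison.

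Of 3 miRNAs whose processing p53 aids in human cells (mir-16, mir-143 and mir-145), 0 rose, 1 fell in hemangiosarcoma and 2 fell in nodular hyperplasia against normal spleen, where 8.8% and 6.8% of all were lower. Mir-143, a smooth muscle miRNA, fell by 1.43 in hemangiosarcoma (adjusted p = 0.0442) and by 2.10 in nodular hyperplasia (adjusted p = 0.0172) against normal spleen on the log2 scale by edgeR. Mir-145, made with mir-143, fell by 1.58 in nodular hyperplasia (adjusted p = 0.0182 by edgeR). Both also mark smooth muscle, and the part of that tissue in these values was not tested. The list medians were -0.74 for hemangiosarcoma and -1.58 for nodular hyperplasia against normal spleen, and 0.67 for hemangiosarcoma against nodular hyperplasia, where none passed.

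Of 4 miRNAs that target the p53 message in human cells (mir-125b, mir-504, mir-25 and mir-30d), 2 passed in hemangiosarcoma against normal spleen and 1 in each other comparison, where 22.4%, 18.4% and 12.4% of all passed. Mir-504 changed in all 3 comparisons. It was at 48.0 ± 39.1 CPM in hemangiosarcoma, 17.3 ± 3.30 CPM in normal spleen and 5.46 ± 2.37 CPM in nodular hyperplasia (SD, n = 5 each). Hemangiosarcoma exceeded normal spleen by 1.47 on the log2 scale (adjusted p = 0.0345) and nodular hyperplasia by 3.12 (adjusted p = 0.000735), and nodular hyperplasia was below normal spleen with a log2 fold change of -1.65 (adjusted p = 0.0369), all by edgeR. Mir-25 fell by 0.72 in hemangiosarcoma against normal spleen (adjusted p = 0.0448 by edgeR). Mir-125b and mir-30d passed in no comparison. The list medians were -0.23, 0.02 and -0.31 for hemangiosarcoma against normal spleen, hemangiosarcoma against nodular hyperplasia and nodular hyperplasia against normal spleen.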

How the data were processed

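Small RNA of 15 canine spleens (5 per disease state) was sequenced. By the study's methods, reads were checked with FastQC, trimmed and counted in CLCbio against the miRBase canine hairpins, and the submitters' processing notes name the build canFam3. Tool versions were not given in the sources used here. Values deposited by the authors are raw counts per hairpin and library, with no normalization, with separate columns for reads on either annotated mature arm and for reads elsewhere on the hairpin. Both mature columns were summed and gene copies of a miRNA joined by name, so 313 hairpins gave 277 miRNAs, 263 of them with any mature count.

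All 250 miRNAs whose summed count reached 10 were fitted together by the quasi-likelihood test of edgeR 4.0.16 (R 4.3.3) with TMM scaling and 1 estimate of the spread for the 3 groups. P-values were adjusted by Benjamini-Hochberg over the 250 miRNAs, with a threshold of 0.05. SE was derived from each log2 fold change and its F statistic, and 95% intervals are 1.96 SE to each side. CPM is the count over library total times TMM factor, times 1e+06. Single members were also tested by the exact two-sided permutation test of log2(CPM + 1) over 252 orderings, with adjustment over 12 tests. Position shares were tested likewise where a member had at least 20 hairpin reads in each library, and correlations by 100000 random pairings. In either set of 12 exact tests, a single result at the smallest p, 0.00794, could not pass the adjustment by itself. Results at that p passed because others in the set shared it. The edgeR step was tested on simulated counts. Alternatives used DESeq2 1.42.0, limma 3.58.1 voom, other scalings, filters and read classes, and left out each library in turn. Other steps ran in Python 3.11.15 (scipy 1.17.1, numpy 2.4.6, matplotlib 3.10.9, pandas 2.3.3).

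All members are named. Other named miRNAs are list members past the threshold and the most alike profiles (highest Pearson r, mean of at least 10 CPM). The members and lists were chosen with earlier results of these data known. The correlations of members with group means removed, and with the marker lists, were chosen after the values were seen. The dog RefSeq table is of another assembly than canFam3 and was used for names and neighbours, with 4 of 4 members matched. No sequence table was used here.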

Additional observations from a re-analysis of the deposited data

Results flagged for a closer look

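Mir-449 in hemangiosarcoma replicate 4 stood far from the other tumors, at 34.2 CPM with the nearest other tumor at 7.14 CPM. On linear CPM the gap was 0.851 of the group's range, above Dixon's critical value of 0.71 for 5 samples. The gap depends on the scale, and the tests of members used log2(CPM + 1). This group was the only one marked of 24 groups of values checked in this way, and chance alone marks about 1 in 20 groups if values are normally distributed. The same library had the fewest mature counts, 3040736, and the largest share of reads outside mature sequences, 22.8%, and 84 of its 164 mir-449 mature reads were exact. Hemangiosarcoma replicates 3 and 5, also above every spleen of the other groups for mir-449, had 17.2% and 16.7% of reads outside mature sequences. This share was 7.86% and 9.30% in hemangiosarcoma replicates 1 and 2. It was 4.83% to 8.57% in normal spleen and 5.37% to 10.4% in nodular hyperplasia. The part of depth or RNA quality in the mir-449 values was not tested.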

How the results depend on the processing

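Mir-34a passed in hemangiosarcoma and in nodular hyperplasia against normal spleen under each of the 13 other settings and without each of the 15 libraries, with log2 fold changes of 2.01 to 2.90 and 2.60 to 3.29. The other members had few counts or a wide spread, and their calls depended on settings. The cause was not tested.

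With library totals alone, which moved the median of all miRNAs to 0.63 and 0.81 in hemangiosarcoma and nodular hyperplasia against normal spleen, mir-34b and mir-34c passed in nodular hyperplasia against normal spleen (3.11 and 2.55), mir-449 turned to 0.44 there and mir-34c to 0.58 in hemangiosarcoma against normal spleen. In the permutation tests the same scaling turned mir-34c to 0.38 and mir-449 to 0.31. Relative to the shifted median, mir-449 and mir-34c stayed below 0 in those comparisons. The passes of mir-34b and mir-34c in nodular hyperplasia against normal spleen carry the same shift. With TMM scaling the median of all miRNAs was 0.23 there, and mir-34b and mir-34c were 2.39 and 1.83. Unscaled counts gave 0.18 for mir-34c in hemangiosarcoma and 0.063 for mir-449 in nodular hyperplasia against normal spleen. Mir-34c in hemangiosarcoma against normal spleen was also 0.012 with at least 100 counts, 0.085 with all hairpin reads, -1.04 with exact mature reads alone and -0.72 to 0.32 without 1 library. Mir-34b with all hairpin reads was -0.066 in that comparison. In nodular hyperplasia against normal spleen it was 1.76 with all hairpin reads (adjusted p = 0.0901 by edgeR).

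Mir-34b in nodular hyperplasia against normal spleen passed with DESeq2 (2.39), limma voom (2.62), at least 100 counts (2.43), copies not merged (2.44) and only the 2 groups compared (2.39), and was 1.99 to 2.72 without 1 library. With exact mature reads alone mir-34b could not be tested, since its 4 exact reads were below the filter of 10 counts. Mir-34c in hemangiosarcoma against nodular hyperplasia passed with DESeq2 (-1.96) and was -2.53 to -1.28 without 1 library. Mir-449 in hemangiosarcoma missed the threshold with limma voom against normal spleen (1.78) and nodular hyperplasia (1.89), and with only the 2 groups compared against nodular hyperplasia (2.76). Without 1 library it was 1.25 to 2.98 and 1.39 to 2.97, and -0.36 to 0.18 for nodular hyperplasia against normal spleen.

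Replicate numbers did not pair the samples: 5 of 15 same-numbered pairs correlated above 0.1 (-0.33 to 0.32), and 2 of 15 libraries correlated best with their own number. With a replicate block mir-449 in hemangiosarcoma was 1.90 against normal spleen and 2.03 against nodular hyperplasia, neither past the threshold. In the same fit mir-34c in hemangiosarcoma against normal spleen was 0.13, and 29 miRNAs were called in hemangiosarcoma against nodular hyperplasia.

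The number of miRNAs called was 56 for hemangiosarcoma against normal spleen (24 with unscaled counts, 36 to 61 without 1 library) and 46 for hemangiosarcoma against nodular hyperplasia (22 with library totals alone, 22 with only the 2 groups compared, 26 to 60 without 1 library). For nodular hyperplasia against normal spleen it was 31 (51 with library totals alone, 16 with unscaled counts, 57 with DESeq2, 56 with only the 2 groups compared, 4 to 46 without 1 library).

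Leaving out libraries for the read positions was chosen after the data were seen. With 4 against 5 samples few of the exact tests passed the adjustment, so mostly sizes are given. The exact share of mir-34a differed by 9.96 to 12.6 points in hemangiosarcoma and 5.38 to 8.29 points in nodular hyperplasia against normal spleen, and that of mir-34c by -15.1 to -9.84 and -19.6 to -13.4 points. Each of the first 3 of these differences still passed in 1 of 10 fits that left out 1 library. The last passed without nodular hyperplasia replicate 2, at -19.6 points (exact permutation, adjusted p = 0.0476). The share outside mature sequences passed no test with all libraries. For mir-34a it differed by -0.78 to 0.85 points between hemangiosarcoma and normal spleen and -3.11 to -1.93 points between hemangiosarcoma and nodular hyperplasia, where -3.11, without hemangiosarcoma replicate 3, passed (exact permutation, adjusted p = 0.0476). Mir-34c differed by -0.29 to 2.57, -0.58 to 1.85 and -0.74 to 1.80 points in hemangiosarcoma against normal spleen, hemangiosarcoma against nodular hyperplasia and nodular hyperplasia against normal spleen. Also chosen after the data were seen, the correlation of mir-34a with mir-34c was -0.45 with library totals and -0.54 with unscaled counts, neither past the threshold.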
